A study of Homo sapiens with 6 samples.

Results

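Interferon regulatory factors (IRFs) are transcription factors that switch on interferon genes and the genes that answer interferon. The 8 family members described here are *IRF1*, *IRF2*, *IRF3*, *IRF4*, *IRF5*, *IRF7*, *IRF8* and *IRF9*, taken by gene symbol from the 19225 symbols of the expression table, and all 8 were found. The RNA came from SW480, an established colon cancer cell line that carries mutant p53. The 3 libraries of one group are labelled control, and the labels do not say whether those cells were given a plasmid. The other 3 are labelled exercised. They were read as the MDM4 group, cells given plasmids encoding MDM4 in a transient transfection, because the series is described as a study of the effect of MDM4, a partner and negative regulator of p53, and the labels hold no other group. The sources used here do not give the share of cells that took up plasmid, the promoter that drove MDM4 or, in the labels, what a control plasmid, if any, carried. Each group has replicates 1 to 3, and nothing says whether these were separate cultures, so a p-value measures only the spread between these libraries. mRNA was enriched with oligo(dT) beads and sequenced on an Illumina platform. Values are FPKM, the reads on a gene divided by its length and by the library total, so that levels can be compared between genes. In the order of replicates 1 to 3, 44561575, 35521411 and 40084422 reads lay on genes in the control group and 36273156, 34585604 and 32921270 in the MDM4 group, as recovered from the FPKM values.

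All IRFs share a DNA-binding domain with a repeat of tryptophans that recognises GAAA repeats. IRF3 and IRF7 rest in the cytoplasm until viral RNA or DNA sensors lead to their phosphorylation by the kinases TBK1 and IKKε, after which they drive the interferon genes. Secreted interferon then signals through JAK kinases to STAT proteins, among them STAT2, which joins IRF9 in the complex ISGF3 on the interferon-stimulated response element (ISRE). *IRF7* and *IRF9* are themselves interferon-stimulated genes, so the pathway can feed back on its own factors. IRF1 activates antigen presentation and interferon-γ genes, IRF2 competes with it for the same sites, IRF5 acts below Toll-like receptors, and IRF4 and IRF8 work mainly in lymphoid and myeloid cells.

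The sites that these factors and their STAT partners read are shown first, because IRF9 acts through one of them and its own promoter holds a match to the other. The windows run from 250 bases before to 50 bases after a gene's start and come from RefSeq on GRCh38.p14. Of the 8 members, 5 had a window, and *IRF2*, *IRF3* and *IRF7* had none. Both strands were searched for the core of the ISRE, GAAA and GAAA with any 2 bases between them, and for TTCNNNGAA, the palindrome of the interferon-γ activated site (GAS). A GAS match lies in the windows of *IRF1* and *IRF9*, which are printed with the match in capitals.
IRF1, chr5:132490724-132491023, minus strand: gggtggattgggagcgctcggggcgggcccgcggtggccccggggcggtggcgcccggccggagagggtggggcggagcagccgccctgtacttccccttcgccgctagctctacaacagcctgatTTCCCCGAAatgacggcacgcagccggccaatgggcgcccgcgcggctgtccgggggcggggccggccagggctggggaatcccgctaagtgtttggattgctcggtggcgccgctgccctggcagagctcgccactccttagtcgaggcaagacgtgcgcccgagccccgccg
IRF9, chr14:24161015-24161314, plus strand: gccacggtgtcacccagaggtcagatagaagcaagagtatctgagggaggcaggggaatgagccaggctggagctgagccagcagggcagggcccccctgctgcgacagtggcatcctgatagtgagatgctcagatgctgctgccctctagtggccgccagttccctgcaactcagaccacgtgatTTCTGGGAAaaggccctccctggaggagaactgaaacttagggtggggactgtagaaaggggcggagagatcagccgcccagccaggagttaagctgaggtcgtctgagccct

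Counted from the RefSeq start that each window is built on, the match begins at -124 in *IRF1* and at -63 in *IRF9*. These starts differ from the ends of the GENCODE spans given with the values, and the match of *IRF9* lies inside its GENCODE span. GAS matches are common, since 9.38% of 27305 genes with a window hold one, and the ISRE core is in 4.38% of them. None of the 5 members with a window holds the ISRE core there. A list of ISGF3 target genes, the antiviral genes that the complex of IRF9 is known to drive, holds it in 19 of 26 genes with a window (73.1%), and a list of IRF1 target genes in 11 of 15 (73.3%). Among target genes that recur in the results, no core was found for *CMPK2*, *OAS1*, *XAF1* and *IFI35*, for want of a match or of a window. Windows of 30 bases around the core are shown for some recurring target genes that hold it, with the core in capitals. Each is written on the strand of the gene, so a core on the other strand reads TTTC, and 1 match is shown where a gene has several.
IFI6, chr1:27672329-27672358, minus strand: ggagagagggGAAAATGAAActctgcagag
MX1, chr21:41420559-41420588, plus strand: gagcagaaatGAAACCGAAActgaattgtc
IFI27, chr14:94110618-94110647, plus strand: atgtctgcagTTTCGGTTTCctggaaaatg
IFIT1, chr10:89392510-89392539, plus strand: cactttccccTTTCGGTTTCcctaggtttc
OAS3, chr12:112938321-112938350, plus strand: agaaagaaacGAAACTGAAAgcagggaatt
EPSTI1, chr13:42992272-42992301, minus strand: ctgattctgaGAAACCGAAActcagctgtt

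These matches describe letters in a window and were not tested as binding sites.

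Before the factors, the transfected gene was read, as a check of the labels. The control libraries held 6.35, 7.09 and 5.13 FPKM of *MDM4* and the MDM4 libraries 188, 185 and 56.3 FPKM, in the order of replicates 1 to 3. Every MDM4 library lay above every control library, and MDM4 replicate 3 had 0.301 of the mean level of the other MDM4 libraries. Replicate 3 stood apart in both groups across the 12884 genes tested below. The deviations of control replicate 3 from its group mean correlated with those of MDM4 replicate 3 at 0.783, against 0.458 and 0.451 for the same-numbered libraries of replicates 1 and 2, a description over genes that are not independent. The members are therefore also given by replicate number.

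The IRFs of SW480 cells spanned a wide range of levels. *IRF3*, the factor that waits for RNA and DNA sensors, was the most abundant, at 59.1 ± 7.38 FPKM in control and 52.4 ± 5.91 FPKM in MDM4 libraries (SD, n = 3 each). Its mean over the 6 libraries was above that of 89.9% of the 12884 genes tested. In control libraries *IRF1* followed at 15.1 ± 1.24 FPKM, then *IRF9* at 14.6 ± 6.70, *IRF7* at 9.61 ± 2.97, *IRF2* at 7.82 ± 2.78 and *IRF5* at 6.86 ± 0.813 (SD, n = 3 each). From *IRF1* down to *IRF5* each neighbour in this order overlapped the next (exact two-sided permutation tests over unpaired libraries, p = 0.3 to 1.0). Within libraries, *IRF9* was above *IRF7* in 3 of 3 control libraries, *IRF7* above *IRF2* and *IRF2* above *IRF5* in 2 of 3, and *IRF1* above *IRF9* in 1 of 3. In MDM4 libraries *IRF1* was at 13.2 ± 0.745 FPKM, followed by *IRF2* at 7.04 ± 3.14, *IRF5* at 6.57 ± 1.04, *IRF7* at 5.26 ± 0.772 and *IRF9* at 5.23 ± 1.71 (SD, n = 3 each). By its mean *IRF9* thus stood above *IRF7*, *IRF2* and *IRF5* in control and below them in MDM4 libraries. In MDM4 libraries the mean of *IRF7* was only 1.01 times that of *IRF9*, and *IRF7* was the higher in 1 of 3 libraries. Among these 5, only *IRF1* in MDM4 libraries was separated from the next gene without overlap (two-sided exact permutation test with p = 0.1, which no 3 against 3 libraries can go below).

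*IRF8* and *IRF4*, the lymphoid and myeloid members, lay under the filter of a mean of 0.5 FPKM and were left out of the test. *IRF8* was at 0.168, 0.0738 and 0.429 FPKM in control and 0.186, 0.119 and 0.387 FPKM in MDM4 replicates 1 to 3, from 7 to 46 reads. In each group replicate 3 was the highest, and the groups overlapped. *IRF4* was at 0.0252, 0.0421 and 0.0513 FPKM in control and 0.0309, 0.0216 and 0.0341 FPKM in MDM4 replicates 1 to 3, from 4 to 11 reads. With all genes above 0 FPKM in the fit neither was called, *IRF8* with a difference of 0.10 (SE 0.46) and *IRF4* with -0.11 (SE 0.15) on the log2 scale (limma adjusted p = 0.9999 for each). Leaving out 1 library moved *IRF8* between -0.27 and 0.53. Markers of blood cells were low as well. The 10 markers on the list summed to between 1.42 and 2.88 FPKM per library, led by *LYZ* (lysozyme) with a mean of 0.714 FPKM, while *PTPRC*, the gene of CD45, had at most 2 reads and *MS4A1*, a B cell marker, had 0 in every library. *SPI1*, the partner that IRF4 and IRF8 need on many sites, had at most 4 reads. Colon epithelial markers ranged widely in level, with *KRT8* (keratin 8) at a mean of 1726 FPKM and *EPCAM* between 156 and 167 FPKM. *CDX2*, an intestinal transcription factor, was between 9.99 and 14.2 FPKM, while its relative *CDX1* was at most 0.0701 FPKM. *VIL1* (villin) was between 1.88 and 4.08 FPKM. None of the 7 tested epithelial and 2 tested blood markers was called over the 6 libraries, where 0% of all genes were called. None of the 7 epithelial markers was called over replicates 1 and 2 alone, where 0.557% of all genes were called lower and 0.0235% higher. Among the epithelial markers 6 of 7 were lower and the median was -0.09 (log2). The members that differed most were *VIL1* with -0.54, *CDX2* with -0.22, *CDH1* (E-cadherin) with 0.14 and *KRT18* (keratin 18) with -0.11. The blood markers *LYZ* and *CD14* had -0.63 and -0.30.

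**Figure D1:**
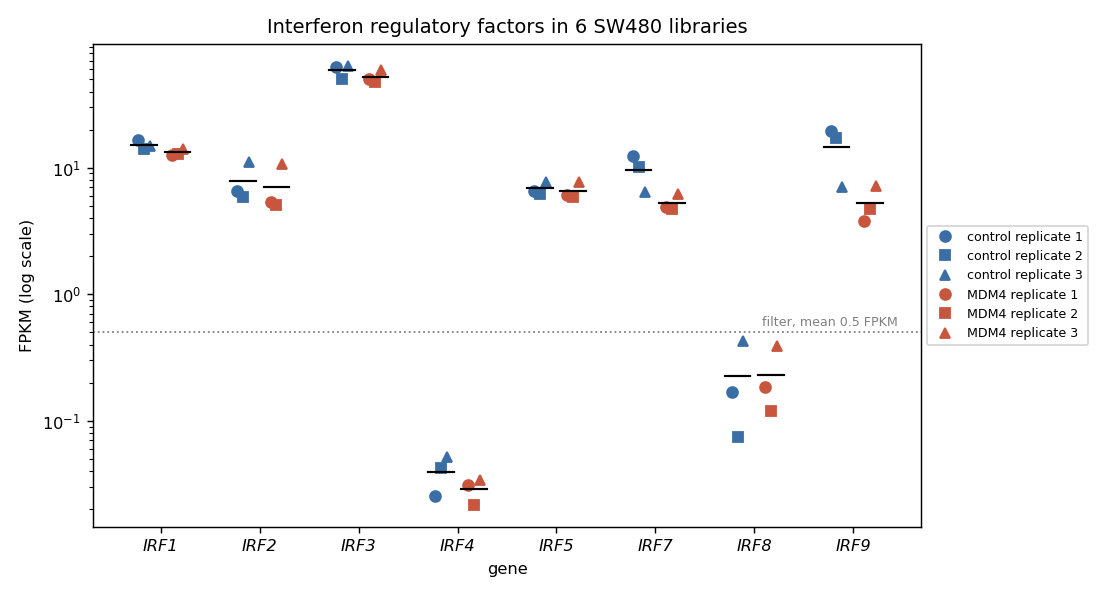
FPKM of the 8 interferon regulatory factors (log axis) in each control (blue) and MDM4 (red) library, with the replicate number as the marker shape and the group mean as a black line. *IRF9* and *IRF7* were high in control replicates 1 and 2 only, *IRF2* and *IRF8* were high in replicate 3 of both groups, and *IRF4* and *IRF8* lay under the filter of 0.5 FPKM, which applies to the mean of the 6 libraries.

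*IRF9* differed most between libraries. Its gene spans chromosome 14 from 24161053 to 24166565, plus strand (GENCODE release 29, GRCh38). Control replicates 1 to 3 held 19.6, 17.2 and 6.98 FPKM, from 1472, 1027 and 471 reads. In MDM4 replicates 1 to 3 it was at 3.80, 4.76 and 7.12 FPKM, from 232, 277 and 395 reads. Control replicates 1 and 2 stood above all other libraries, while control replicate 3 lay just under MDM4 replicate 3, so the groups overlapped. The control library held 5.16 times the FPKM of the MDM4 library in replicate 1, 3.61 times in replicate 2 and 0.979 times in replicate 3. These are bulk libraries, in which fewer cells that express a gene and less of its RNA per cell cannot be told apart.

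*IRF7*, the factor that amplifies interferon production, was likewise highest in control replicates 1 and 2, on a smaller scale. Its gene spans chromosome 11 from 612553 to 615999, minus strand. Control replicates 1 to 3 held 12.3, 10.1 and 6.44 FPKM and MDM4 replicates 1 to 3 held 4.90, 4.74 and 6.15 FPKM, from 324 to 1086 reads. The groups did not overlap, but control replicate 3 was only 1.05 times the highest MDM4 library. Same-numbered control libraries stood 2.52-fold (replicate 1), 2.12-fold (replicate 2) and 1.05-fold (replicate 3) over the MDM4 libraries.

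The groups were compared by limma on log2(FPKM + 0.1). It took in the 12884 genes whose mean reached 0.5 FPKM, and p-values were adjusted by Benjamini-Hochberg over them all. Over all 6 libraries and with no block, 0 of the 6 tested members passed an adjusted p of 0.05, and neither did any of the 12884 genes (0%). At an unadjusted p under 0.05 there were 2 members, *IRF7* and *IRF9*, and 222 genes. Voom on the recovered reads gave 0 calls as well, among members and among all genes. For *IRF9* the log2 fold change, given with its standard error (SE), was -1.38 (SE 0.40, limma adjusted p = 0.9999), with a 95% interval from -2.30 to -0.45. *IRF7* had -0.82 (SE 0.24, limma adjusted p = 0.9999), with an interval from -1.37 to -0.26. All 6 tested members had negative fold changes, with a median of -0.19, against -0.01 over all genes, of which 6803 of 12884 were lower. *IRF2* and *IRF5* turned positive without control replicate 3 and without MDM4 replicate 2. Groups that did not overlap were found for 1 of the 6, *IRF7*, and in that direction for 3.76% of all genes.

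Replicate 3 stood apart, so the comparison was also made over replicates 1 and 2 alone (2 libraries per group). This subset was chosen after replicate 3 was seen. It leaves out the pair in which *IRF9* hardly differed, at 6.98 FPKM in control and 7.12 FPKM in MDM4 replicate 3. Its p-values therefore depend on that choice. Over replicates 1 and 2 *IRF9* fell with MDM4 by a log2 fold change of -2.08 (SE 0.13, limma adjusted p = 3.42e-06), with both MDM4 libraries below both control libraries. *IRF7* fell by a log2 fold change of -1.19 (SE 0.12, limma adjusted p = 3.87e-04), also without overlap. These were 2 of the 6 tested members, where 0.557% of 12746 genes were called lower and 0.0235% higher. The other 4 members were not called, with adjusted p values from 0.577 to 0.848 in limma. A block for the replicate number over all 6 libraries called 0 members and 0.0155% of genes, and the limma adjusted p of *IRF9* and of *IRF7* was 0.249. In voom with the block it was 0.0619 for *IRF9* and 0.0690 for *IRF7*, and 0.186% of genes were called lower. Leaving out control replicate 3 by itself made *IRF9* a call (log2 fold change -1.84, adjusted p = 0.0398 from limma), where 0.148% of genes were called lower, while *IRF7* had a limma adjusted p of 0.0971. Leaving out MDM4 replicate 3 by itself called 0 members and 0.00779% of genes.

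The difference of the effect between replicates was tested in the same model, by a term for the MDM4 effect in replicate 3 minus that in replicates 1 and 2. For *IRF9* the term was 2.11 (SE 0.22, limma adjusted p = 0.00135), and it was called higher in 0.186% of all genes. For *IRF7* it was 1.13 (SE 0.22, limma adjusted p = 0.115). For *IRF9* the adjusted p was 0.501 when all genes above 0 FPKM were tested and 0.198 without the trend in limma, with the term at 2.11 in both. The term was formed after replicate 3 was seen to stand apart and restates that observation. It rests on 1 library per group in replicate 3, set against the spread among replicates 1 and 2, and replicate number cannot be told apart from anything else in which those libraries differ. *MDM4* itself had a term of -1.35 (adjusted p = 0.00166 from limma), its rise being smaller in replicate 3. Whether that level had a part in the result for *IRF9* was not tested. Within the control libraries, where *MDM4* lay between 5.13 and 7.09 FPKM, the mean of *IRF9* in replicates 1 and 2 was 2.64 times its level in replicate 3, and that of *IRF7* 1.74 times. In MDM4 libraries replicate 3 was 1.67 times the mean of replicates 1 and 2 for *IRF9* and 1.28 times for *IRF7*.

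**Figure D2:**
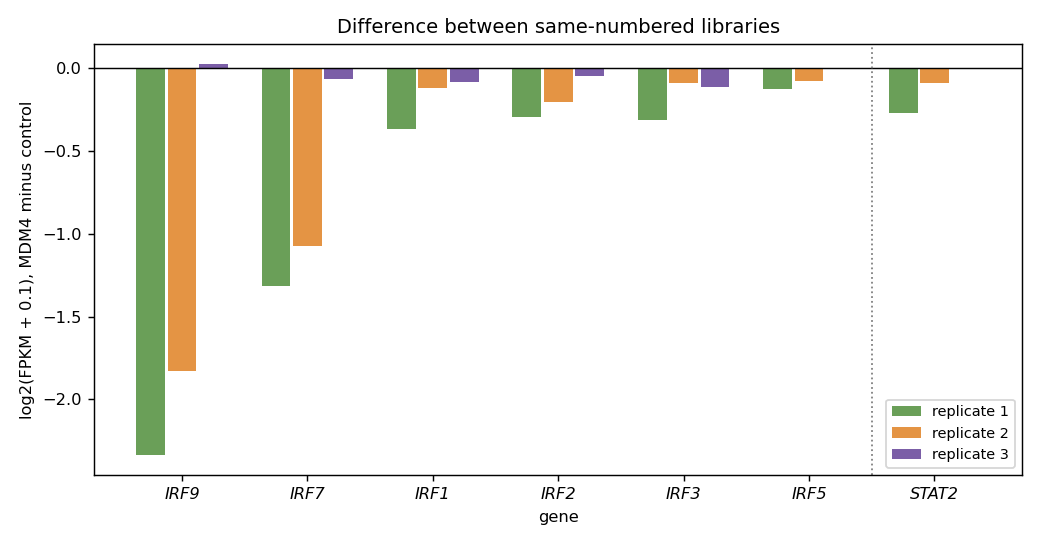
Bars give the log2(FPKM + 0.1) of the MDM4 library minus that of the control library of the same replicate number, for the 6 tested factors and, right of the dotted line, the ISGF3 partner *STAT2*. *IRF9* had -2.34 and -1.83 in replicates 1 and 2 and 0.03 in replicate 3, while *IRF1*, *IRF2*, *IRF3* and *IRF5* lay between -0.37 and 0 in every replicate.

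*STAT2*, a partner of IRF9 in the ISGF3 complex, did not share its pattern of libraries. It was at 8.85, 7.97 and 12.8 FPKM in control and 7.33, 7.50 and 12.8 FPKM in MDM4 replicates 1 to 3. Replicate 3 was the highest in both groups. Without replicate 3 the difference of *STAT2* was -0.18 on the log2 scale (limma adjusted p = 0.705).

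*IRF1* and *IRF2*, the activator and its competitor, did not pass the test in any fit. The gene of *IRF1* spans chromosome 5 from 132481609 to 132490798, minus strand. It was at 16.4, 13.96 and 14.9 FPKM in control and 12.7, 12.8 and 14.1 FPKM in MDM4 replicates 1 to 3. The groups overlapped by 1 library on either side, and the MDM4 library was the lower in each replicate. Its log2 fold change was -0.19 (SE 0.10, limma adjusted p = 0.9999), with a 95% interval from -0.42 to 0.04. Of the 6 tested members *IRF1* had the narrowest range across libraries, 0.37 on the log2 scale against 2.34 for *IRF9*. *IRF2*, on the minus strand of chromosome 4 from 184387713 to 184474580, was at 6.59, 5.86 and 11.0 FPKM in control and 5.36, 5.09 and 10.7 FPKM in MDM4 replicates 1 to 3. Replicate 3 was 1.77 times the mean of replicates 1 and 2 in control and 2.04 times in MDM4 libraries, a larger difference than between the groups in any replicate. The log2 fold change of *IRF2* was -0.18 (SE 0.33), with a 95% interval from -0.95 to 0.59.

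*IRF3* and *IRF5*, which act below nucleic acid sensors and Toll-like receptors, likewise were not called. *IRF3*, on the minus strand of chromosome 19 from 49659569 to 49665875, was at 63.0, 50.6 and 63.7 FPKM in control and 50.7, 47.6 and 58.98 FPKM in MDM4 replicates 1 to 3. The MDM4 library was lower in 3 of 3 replicates but the groups overlapped. The log2 fold change was -0.17 (SE 0.12), with a 95% interval from -0.45 to 0.10. *IRF5*, which spans chromosome 7 from 128937612 to 128950035 on the plus strand, was at 6.59, 6.21 and 7.77 FPKM in control and 6.03, 5.89 and 7.77 FPKM in MDM4 replicates 1 to 3. Its replicate 3 values were the same to 3 digits in both groups. The log2 fold change was -0.07 (SE 0.15), with a 95% interval from -0.42 to 0.29. Exons of *IRF3* share 734 bases with *BCL2L12* on the opposite strand, and those of *IRF1* share 1716 bases with *C5orf56* on the opposite strand. *IRF9* shares 1838 exon bases with *AL136295.5* on its own strand. Whether the authors' counting used strand is not given in the sources used here, so reads of *IRF1* and *IRF3* are uncertain to that extent. For *IRF9* the shared bases lie on its own strand, so its reads are uncertain with or without the use of strand.

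Genes around the factors were taken from lists of well-known members. Upstream of IRF3, IRF5 and IRF7, the median log2 fold change of 19 tested genes was -0.09, with 15 lower. Among all 12884 genes 6803 were lower. Over replicates 1 and 2 alone, 1 of the 19 passed the filter only through control, which fixes its direction. Of the other 18, 2 were called, both lower, where 0.557% of all genes were called lower. The called genes were *IFIH1* and *DDX58*, the RNA sensors MDA5 and RIG-I. *IFIH1* was at 11.8, 13.1 and 7.93 FPKM in control and 5.14, 5.88 and 8.81 FPKM in MDM4 replicates 1 to 3 (adjusted p = 2.62e-04 from limma over replicates 1 and 2). Both sensors are themselves interferon-stimulated genes. The other genes of this list that differed most were *TLR3*, a receptor for double-stranded RNA, with a log2 fold change of -0.49 over the 6 libraries, and *DHX58* (LGP2), a modulator of the RNA sensors, with -0.47, neither of them called. The kinases that phosphorylate IRF3 and IRF7 were not called. *TBK1* was at 17.4 ± 2.04 FPKM in control and 18.7 ± 1.12 FPKM in MDM4 libraries, and *IKBKE*, the gene of IKKε, at 15.1 ± 0.966 and 12.8 ± 1.84 FPKM (SD, n = 3 each).

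Interferon genes of types I, II and III, not only those that IRF3 and IRF7 act on, were scarce. Of 10 on the list, 4 were at 0 in every library and 2 passed the filter. Their summed level was 4.34, 6.04 and 0.303 FPKM in control and 0.514, 0.488 and 0.903 FPKM in MDM4 replicates 1 to 3, so that the libraries with the highest *IRF9* and *IRF7* also held the most interferon transcript. In control replicates 1 and 2 most of it came from the lambda interferons. In the other 4 libraries most came from *IFNE*. It was at 0.303 FPKM in control replicate 3 and 0.428, 0.488 and 0.533 FPKM in MDM4 replicates 1 to 3. *IFNL2* was at 1.31 and 2.10 FPKM in control replicates 1 and 2 and at most 0.0412 FPKM in the other 4 libraries. *IFNL3* was at 1.98 and 2.22 FPKM in control replicates 1 and 2 and at most 0.188 FPKM in the others. Over replicates 1 and 2 alone these genes passed the filter only through control, which fixes their direction, so no test is given. *IFNL2* and *IFNL3* are near-identical copies, so their reads may be split uncertainly between them. Whether interferon had a part in the result for the factors was not tested.

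Of 17 tested genes of the interferon receptors and JAK-STAT signalling, 9 were lower and 8 higher, with a median log2 fold change of -0.01. *USP18*, a protease that dampens receptor signalling, was at 4.81, 4.63 and 2.81 FPKM in control and 1.63, 2.31 and 2.72 FPKM in MDM4 replicates 1 to 3, and fell over replicates 1 and 2 (log2 fold change -1.24, adjusted p = 0.00401 from limma). *PIAS1*, a SUMO ligase that restrains this pathway, and the kinase *JAK2* had log2 fold changes of 0.23 and 0.22 over the 6 libraries and were not called. Of 11 tested cofactors and partners of the factors, 0 were called over all 6 libraries, with the block or over replicates 1 and 2 alone. Among all genes 0% and 0.0155% were called in the first 2 of these fits. Over replicates 1 and 2 alone 0.557% were called lower and 0.0235% higher. Of the 11, 7 were lower, where 6803 of all 12884 genes were lower. The corepressors of IRF2, *IRF2BP1* and *IRF2BP2*, were at 17.5 ± 1.87 and 28.3 ± 2.69 FPKM in control and 16.3 ± 1.38 and 26.6 ± 3.64 FPKM in MDM4 libraries (SD, n = 3 each). Their relative *IRF2BPL* was highest in replicate 3 of both groups, at 21.9 FPKM in control and 20.4 FPKM in MDM4 libraries, as *IRF2* was. The other members of this list that differed most were *BATF2*, a partner of IRF1, *TRIM21*, a ubiquitin ligase, *NMI*, which binds STATs, and the coactivator *EP300*, with log2 fold changes of -0.27, -0.25, -0.24 and 0.15.

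Target genes of the factors were read from a list for ISGF3 and a list for IRF1, and the difference between the lists was not tested. Of 26 tested ISGF3 target genes, 25 were lower, with a median log2 fold change of -1.07 over the 6 libraries, where 0 were called. The median by replicate number was -1.56, -1.59 and -0.03, against -0.02, 0.0016 and -0.0043 over all genes. Genes that passed the filter only through control, which fixes their direction, are left out of the next counts. They were 3 of the 26 over replicates 1 and 2 and 2 of the 26 over the 6 libraries. The count of lower genes and the medians above include those 2. Over replicates 1 and 2 alone 20 of the other 23 were called lower and 0 higher. Among all genes 0.557% were called lower there and 0.0235% higher. With the replicate block over the 6 libraries, 0 of the other 24 were called by limma on log2 FPKM and 12, all lower, by voom. Among all genes 0.0155% were called by limma with the block, and 0.186% were called lower by voom with it. The replicate 3 term had a median of 1.55 over all 26 tested genes, those 2 included, against 0.0092 over all genes. Among the other 24 it was called higher in 13, against 0.186% of all genes. Earlier results of these libraries were known when the list was drawn up, so these counts are not independent evidence. *IFI6*, which limits virus replication and apoptosis, was at 162, 170 and 21.3 FPKM in control and 15.2, 16.7 and 19.6 FPKM in MDM4 replicates 1 to 3. *MX1*, a GTPase that blocks viruses, was at 30.6, 30.4 and 5.65 FPKM in control and 3.86, 3.75 and 5.26 FPKM in MDM4 replicates 1 to 3. Both had control replicate 3 beside the MDM4 libraries and far below the other controls, the pattern seen in *IRF9*. *IFI27*, which acts in apoptosis, had a fold change of -2.61 (log2) over replicates 1 and 2 alone, and *IFI6*, *MX1* and *IFI27* fell there. *XAF1*, also a gene of apoptosis, was at 1.60, 1.46 and 0.235 FPKM in control and 0.0916, 0.0320 and 0.135 FPKM in MDM4 replicates 1 to 3. It passed the filter only through control, so its test is not given.

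Of 19 tested IRF1 target genes, 19 were lower, with a median of -0.24 over the 6 libraries and of -0.36, -0.24 and -0.09 by replicate number, where 6803 of all 12884 genes were lower. Groups that did not overlap were found in 6 of the 19, against 3.76% of all genes in that direction. Of the 19, 1 gene, *GBP1*, passed the filter over the 6 libraries only through control, which fixes its direction. Over replicates 1 and 2 alone 2 of the 19 did so, and 0.557% of all genes were called lower. Of the other 17, 1 was called there, *HLA-B*, which presents peptides to T cells. It was at 187, 177 and 138 FPKM in control and 133, 126 and 132 FPKM in MDM4 replicates 1 to 3 (log2 fold change -0.49, adjusted p = 0.00323 from limma over replicates 1 and 2). *PSMB8*, an immunoproteasome subunit, was at 27.6, 23.7 and 25.4 FPKM in control and 17.0, 19.1 and 22.5 FPKM in MDM4 replicates 1 to 3, without overlap and without a call. *GBP1*, an interferon-induced GTPase, was at 0.770, 0.910 and 0.253 FPKM in control and 0.531, 0.368 and 0.198 FPKM in MDM4 replicates 1 to 3. *APOL1*, an apolipoprotein, had -0.42 (log2) over the 6 libraries and was not called.

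**Figure D3:**
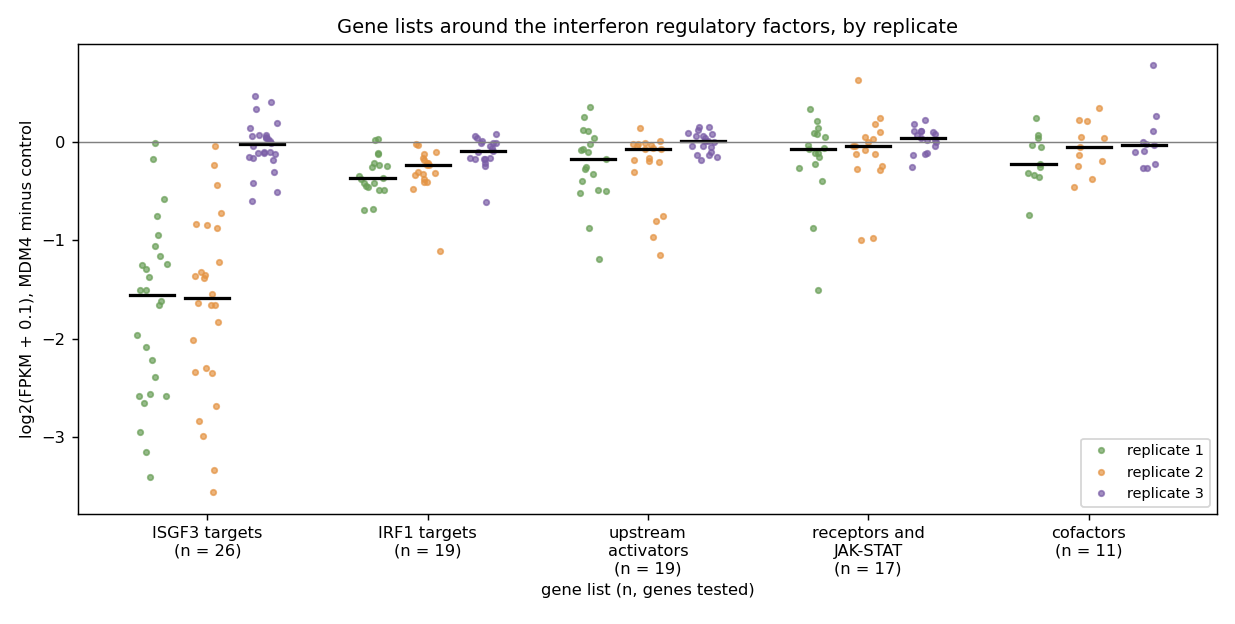
Each point is a tested gene, plotted as the log2(FPKM + 0.1) of the MDM4 library minus that of the control library of the same replicate number, for the gene lists around the factors. ISGF3 target genes had medians of -1.56 and -1.59 in replicates 1 and 2 and -0.03 in replicate 3, and IRF1 target genes -0.36, -0.24 and -0.09. These medians include 2 ISGF3 and 1 IRF1 target genes that passed the filter only through control.

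The genes most like *IRF9* and *IRF7* were sought among the other 12883 tested genes, by the root mean square difference of log2(FPKM + 0.1) after centring each gene over the 6 libraries. Nearest to *IRF9* were *CMPK2* (0.114), *IFIT1* (0.165), *OAS1* (0.214), *OAS3* (0.232) and *EPSTI1* (0.234), against a median of 0.890 over all genes. *IFIT1*, a binder of viral RNA, was at 4.95, 5.22 and 1.73 FPKM in control and 0.746, 0.982 and 1.76 FPKM in MDM4 replicates 1 to 3, with control replicate 3 just under MDM4 replicate 3 as in *IRF9*. *IRF7* was in position 19 of that order. Nearest to *IRF7* were *IFITM3* (0.134), *PARP9* (0.144), *IFI35* (0.153), *USP18* (0.171) and *CXCL3* (0.174), against a median of 0.535, and *IRF9* was in position 187. *IFITM3*, which blocks virus entry, was at 314, 299 and 217 FPKM in control and 158, 157 and 199 FPKM in MDM4 replicates 1 to 3. This likeness is a description over 6 libraries, and all genes compared share those libraries.

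**Figure D4:**
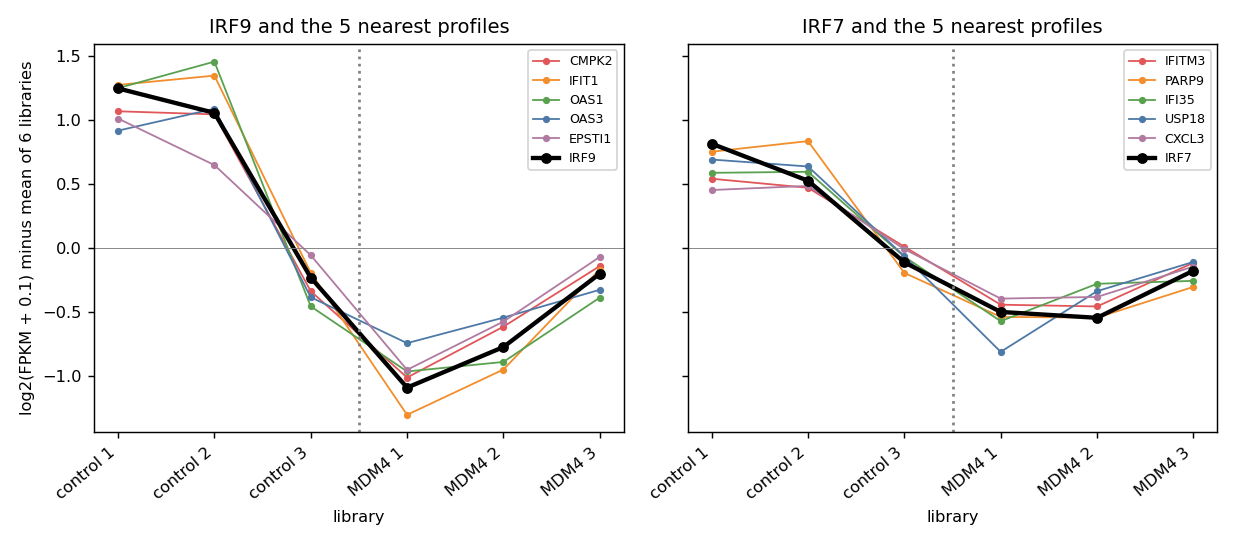
Lines give log2(FPKM + 0.1) centred over the 6 libraries for *IRF9* and *IRF7* and the 5 genes nearest to each. Control replicates 1 and 2 lie above the other 4 libraries in every gene drawn.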

How the data were processed

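The deposited table held FPKM values that the authors had computed for 19225 gene symbols in 6 libraries. The aligner, genome build, annotation and use of strand are not given in the sources used here. The columns carry only a letter and a number. G was read as control and M as MDM4, and 0 columns were left without a sample. FPKM values are not counts, but low values were whole multiples of 1 read. A whole-number solution was found for 17189 of the 17189 symbols above 0 (100%, tolerance 0.004 reads, widened for rounding of the values). On simulated FPKM the same method returned the true reads for 98.3% of 2971 genes. A common factor of a gene's reads can remain undetermined.

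The test was limma 3.58.1 (moderated with a mean trend, R 4.3.3) on log2(FPKM + 0.1) for genes whose mean reached 0.5 FPKM, so fold changes of low genes are understated. p-values were adjusted by Benjamini-Hochberg over all tested genes, and a call was an adjusted p under 0.05. Exact permutation tests were two-sided. Alternatives were other pseudocounts, filters and scalings, voom on the recovered reads, the replicate block, replicates 1 and 2 alone, and leaving out each library. Same-numbered libraries deviated together (correlations of 0.458, 0.451 and 0.783), so the numbers were taken to pair them, although replicates 1 and 2 correlated as well across numbers (0.462 and 0.439). The code was tested on simulated data.

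Genes named were *MDM4*, the 8 members, their direct partners, the 4 genes of each list with the largest absolute log2 fold change, and the 5 genes nearest to each of the 2 members of widest range. Not every gene that the rule names is reported here. Other genes named as markers were chosen after their values were seen. The members and the 8 lists were chosen with earlier results of these data known. Of 23 listed upstream genes, 20 were found by symbol. Gene positions are from GENCODE release 29 (GRCh38), and promoters from RefSeq (GRCh38.p14).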

Additional observations from a re-analysis of the deposited data

Results flagged for a closer look

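A difference between replicates drew attention to *IRF9*. Its log2 difference (MDM4 minus control) in replicate 3 minus that in replicates 1 and 2 was 2.11 ± 0.22 (SE, limma adjusted p = 0.00135). The term stayed at 2.11 but lost its call when all genes above 0 FPKM were tested (adjusted p = 0.501) and without the trend in limma (adjusted p = 0.198). Replicate 3 has 1 library per group, so the spread comes from replicates 1 and 2, and the term was formed after replicate 3 was seen to stand apart. The cause was not tested.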

How the results depend on the processing

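Over all 6 libraries 0 genes and 0 members were called. With the replicate block, which treats same-numbered libraries as pairs, 2 genes were called and *MDM4* had a log2 fold change of 4.33 (limma adjusted p = 4.77e-05). Replicates 1 and 2 alone gave 74 genes and 2 members, with 4.78 for *MDM4*, -1.19 for *IRF7* and -2.08 for *IRF9*. Voom with the replicate block gave 29 genes and 4.44 for *MDM4*. The block changed no call of a member. Leaving out 1 library gave 0 to 21 genes and 0 to 1 members, with 21 genes without control replicate 3 and 1 without MDM4 replicate 3. The log2 fold changes then ran from 4.03 to 4.91 for *MDM4*, -1.84 to -1.10 for *IRF9*, -1.08 to -0.61 for *IRF7*, -0.52 to 0.09 for *IRF2* and -0.19 to 0.03 for *IRF5*. *IRF2* turned to 0.0912 and *IRF5* to 0.0255 without control replicate 3, and to 0.0073 and 0.0044 without MDM4 replicate 2. *IRF8*, below the filter, turned from 0.10 to -0.27 without control replicate 2 and to -0.22 when MDM4 replicate 3 was left out, and was 0.53 without control replicate 3. *IRF4*, with few reads, had -0.11 on log2 FPKM and -0.37 in voom with or without the block. *IRF1* and *IRF3* kept a negative value under all 18 alternatives. The replicate 3 term was called in 25 genes, in 0 when all genes above 0 FPKM were tested and in 5 without the trend. For *IRF9* that term stayed at 2.11 in both settings, with SE 0.26 and 0.24 and limma adjusted p of 0.501 and 0.198. Causes were not tested. The planned edgeR alternative was not run, and voom on the recovered reads was used in its place.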

Other observations

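*IFNE*, an interferon of epithelia, lay under the filter and was chosen after its values were seen. It had 4, 4 and 18 reads in control and 23, 25 and 26 reads in MDM4 replicates 1 to 3, so that, unlike the lambda interferons, it was lowest in control replicates 1 and 2. At 0.0606 to 0.533 FPKM it was not tested.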
